A study of Mus musculus with 13 samples.

Results

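CBX8 is a chromobox subunit of canonical Polycomb repressive complex 1 (PRC1), and RING1B is the catalytic E3 ligase of PRC1 that ubiquitinates histone H2A. The regions described here carried a peak of CBX8 and no peak of RING1B. They were chosen from the authors' peak lists: a peak of CBX8 replicate 1 was a member when it overlapped a peak of CBX8 replicate 2 by at least 1 bp and overlapped no peak of either RING1B library. Of the 9926 CBX8 replicate 1 peaks, 5367 overlapped CBX8 replicate 2. RING1B was listed at 4579 of these, and the other 788 are the members. The 4579 peaks with RING1B are the comparison set throughout, and all 9926 CBX8 replicate 1 peaks are the background. CBX8 and RING1B values chose the members, so they are given as description and without a test.

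The study profiled chromatin of wild-type C57BL6 mouse basal cells of the adult olfactory epithelium. The cells were sorted by c-KIT, a receptor tyrosine kinase, and cultured adherently with EGF, FGF2, BMP4, SB431542 and heparin. Chromatin immunoprecipitation with sequencing (ChIP-seq) was made for CBX8, RING1B, H3K27me3 and H3K27ac, with 2 libraries each and 5 inputs. All libraries share the genotype and the medium, and 3 cell lines supplied them. CBX8 replicate 1 and RING1B replicate 2 both came from line 2 at passage 19. CBX8 replicate 2 came from line 3 at passage 14, as did H3K27ac replicate 2, and no RING1B library analysed here is from that line. RING1B replicate 1 was from line 1 at passage 12, where H3K27me3 replicate 1 also originated. The remaining libraries were of line 2: H3K27me3 replicate 2 (passage 11) and H3K27ac replicate 1 (passage 13). Antibody, line and passage therefore cannot be told apart in most comparisons between libraries. Of the basal cell markers reported here, H3K27ac covered the starts of Krt5, Krt14, Sox2 and Itgb1 in both libraries, and that of Kit in H3K27ac replicate 2 only. The starts of 1 of 3 mature neuron, 2 of 3 sustentacular, 1 of 3 immune and 2 of 3 mesenchyme markers were covered in both libraries. The lists held from 7578 peaks for RING1B replicate 1 to 123155 for H3K27ac replicate 1, and RING1B replicate 2 held 32918. No read counts are in the lists, so depth is unknown, and a missing peak means that none was listed.

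In canonical PRC1 a CBX protein reads H3K27me3, the mark that Polycomb repressive complex 2 writes, and RING1B modifies the nearby nucleosomes. The complex is best known for holding developmental regulators silent in stem and progenitor cells. H3K27ac occupies the same residue of histone H3, marks active promoters and enhancers, and excludes methylation of that residue on the same histone tail.

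Members included promoters of both kinds of chromatin, and the sequences of 4 promoters, chosen as examples, are printed here. A member covered part of the 250 bases upstream of the start of Twist2, a basic helix-loop-helix regulator of mesenchyme, and of Gria4, an AMPA glutamate receptor subunit, and both promoters carried H3K27me3 in both libraries without H3K27ac. The uncharacterised genes 4931429P17Rik and 2210417A02Rik had H3K27ac in both libraries without H3K27me3. The windows are chr1:91801211-91801460 (plus strand), chr9:4796235-4796484 (minus), chr13:48018609-48018858 (minus) and chr5:148741590-148741839 (plus), from RefSeq on GRCm38.p6, which is the mm10 assembly. Each is printed 5′ to 3′ with the bases under the CBX8 replicate 1 peak in capitals.
Twist2: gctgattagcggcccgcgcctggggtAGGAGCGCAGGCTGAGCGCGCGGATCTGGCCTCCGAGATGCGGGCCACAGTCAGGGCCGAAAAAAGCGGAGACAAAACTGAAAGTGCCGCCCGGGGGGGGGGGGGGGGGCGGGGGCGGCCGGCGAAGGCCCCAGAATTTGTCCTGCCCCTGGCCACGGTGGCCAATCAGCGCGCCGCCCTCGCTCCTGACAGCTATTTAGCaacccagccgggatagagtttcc
Gria4: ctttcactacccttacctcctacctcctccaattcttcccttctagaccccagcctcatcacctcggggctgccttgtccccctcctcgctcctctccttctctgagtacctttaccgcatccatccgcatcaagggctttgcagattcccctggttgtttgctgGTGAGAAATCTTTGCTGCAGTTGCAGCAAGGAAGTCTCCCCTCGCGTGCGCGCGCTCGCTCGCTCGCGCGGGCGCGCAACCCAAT
4931429P17Rik: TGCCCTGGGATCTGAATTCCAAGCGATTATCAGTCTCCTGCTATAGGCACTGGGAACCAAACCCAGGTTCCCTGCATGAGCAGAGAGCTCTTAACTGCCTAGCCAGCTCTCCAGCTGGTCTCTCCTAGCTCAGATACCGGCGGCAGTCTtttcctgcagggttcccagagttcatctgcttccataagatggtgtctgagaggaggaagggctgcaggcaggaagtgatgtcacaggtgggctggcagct
2210417A02Rik: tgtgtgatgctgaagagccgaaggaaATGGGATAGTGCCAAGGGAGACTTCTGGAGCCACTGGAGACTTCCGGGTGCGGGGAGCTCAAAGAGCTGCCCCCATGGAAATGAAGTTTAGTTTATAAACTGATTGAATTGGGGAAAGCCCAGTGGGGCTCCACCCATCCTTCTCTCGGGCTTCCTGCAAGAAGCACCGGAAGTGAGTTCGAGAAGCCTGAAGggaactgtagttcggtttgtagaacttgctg
The Twist2 window held 23 CG dinucleotides and the Gria4 window 16. The 4931429P17Rik window held 3 and the 2210417A02Rik window 7.

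Most members lay away from promoters. By the authors' annotation, 379 members (48.1%) were distal intergenic, 205 (26.0%) intronic, 50 (6.35%) exonic, 12 (1.52%) in a 3′ UTR and 127 (16.1%) within the promoter class, which reaches 3 kb from a start. Of the CBX8 peaks with RING1B, 52.9% fell in the promoter class, 27.5% were distal intergenic and 12.3% intronic. Within 2 kb of a transcript start were 96 members (12.2%), against a background of 30.6% of all CBX8 replicate 1 peaks and 46.0% of those with RING1B. The median distance to a start was 19704 bp for members and 2539 bp for peaks with RING1B. Choosing members from the CBX8 replicate 2 list by the mirror of the rule gave 701 peaks, of which 12.4% lay within 2 kb of a start. The low promoter share was also found in CBX8 replicate 1 peaks that lacked both a CBX8 replicate 2 and a RING1B peak: 12.5% of those 3822 lay within 2 kb of a start.

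**Figure D1:**
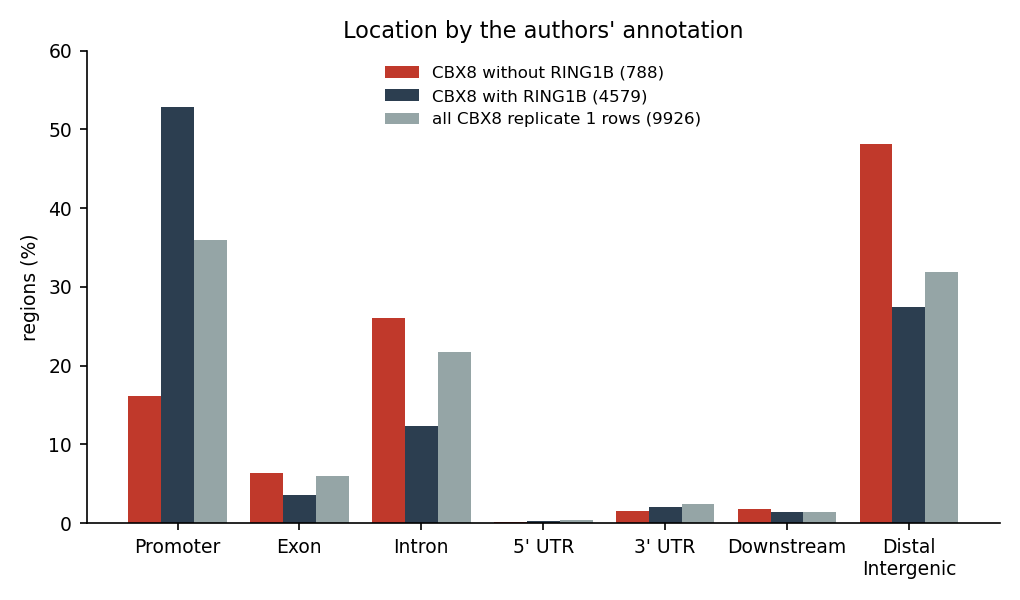
Percent of regions (y axis) in each class of the authors' annotation (x axis) for members, for CBX8 peaks with RING1B and for all CBX8 replicate 1 peaks. Members were distal intergenic in 48.1% and promoter-class in 16.1%, and peaks with RING1B in 27.5% and 52.9%.

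H3K27me3, the mark that CBX proteins read, was listed at a smaller share of members than of the background. H3K27me3 replicate 1 covered 210 members (26.6%), against a background of 52.3% of all CBX8 replicate 1 peaks. H3K27me3 replicate 2 covered 302 (38.3%), against 62.5%. The mean over libraries was 32.5% ± 8.26 (SD, n = 2) for members and 91.5% ± 4.29 (SD, n = 2) for CBX8 peaks with RING1B, and each library alone gave the lower share for members. Both libraries covered 183 members (23.2%), against 50.2% of the background and 87.2% of peaks with RING1B. When RING1B replicate 2 was left out of the rule, 52.8% of the 2202 regions then chosen had it in both libraries.

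Pooled over all CBX8 folds, H3K27ac lay the other way, though not in each group of CBX8 fold given below. It covered 314 members (39.8%) in replicate 1, against a background of 31.4%, and 248 (31.5%) in replicate 2, against 27.2%. The mean was 35.7% ± 5.92 (SD, n = 2) for members and 22.8% ± 0.988 (SD, n = 2) for peaks with RING1B. Both libraries covered 213 members (27%), against 21.4% of the background and 16% of peaks with RING1B. Neither mark comparison was tested: regions of the same libraries are not replicates, and for 2 libraries against 2 the smallest two-sided exact p is 0.333. The library values of members and of peaks with RING1B did not overlap for either mark. Against the background, the lower H3K27ac value of members (31.5%) was barely above the higher background value (31.4%). With the mirror rule, H3K27ac covered 35.1% and 27.5%, which overlap the background values. Members outside the bins of 1 Mb described below, each rich in members, had H3K27ac in both libraries at 21.1%. The background was 21.4%.

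**Figure D2:**
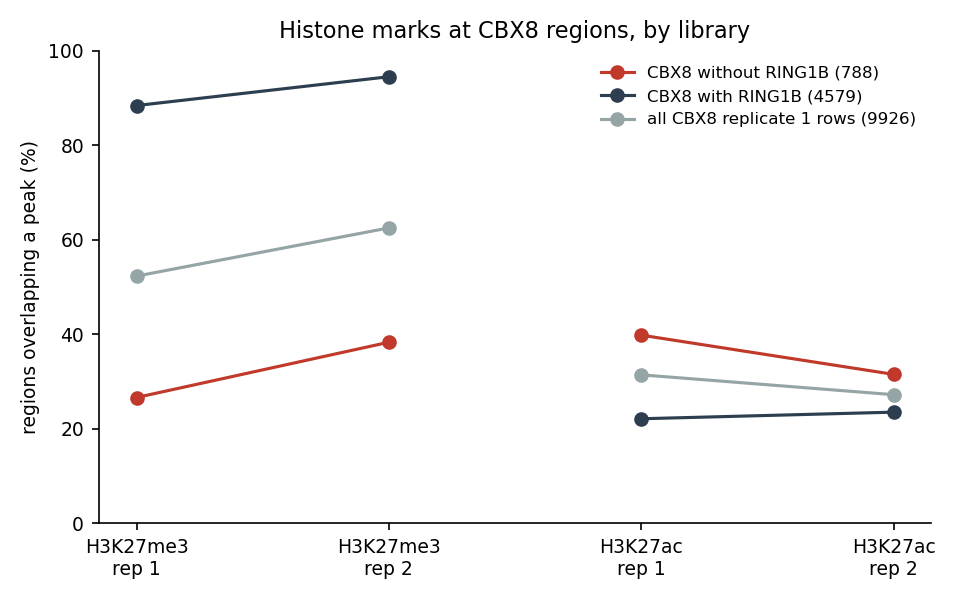
Percent of regions overlapping a peak (y axis) of each histone mark library (x axis); points are libraries, lines join the libraries of a mark, and colours give the set. Members have 26.6% and 38.3% with H3K27me3, below the 88.4% and 94.5% of CBX8 peaks with RING1B, and 39.8% and 31.5% with H3K27ac, above their 22.1% and 23.5%.

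Combined over the 4 histone libraries, members fell into classes by mark. H3K27me3 in both libraries and no H3K27ac marked 133 members (16.9%, background 39.1%), called the methylated class below. H3K27ac in both libraries and no H3K27me3 marked 148 (18.8%, background 12.9%), the acetylated class. Both marks in all 4 libraries were found at 27 (3.43%, background 5.10%). No peak in any of the 4 libraries was found at 226 members (28.7%, background 15.5%), the unmarked class. That share was 15.7% with CBX8 q-values of 1e-05 or less in both libraries and 11.3% without RING1B replicate 2. By contrast, 27 of 4579 peaks with RING1B (0.590%) were unmarked. The other 254 members (32.2%) had at least one of the marks in 1 of its libraries only and are left out of these 4 classes. Of the CBX8 replicate 1 peaks lacking both CBX8 replicate 2 and RING1B, 14.0% had H3K27me3 in both libraries, 22.5% H3K27ac in both and 32.5% no mark.

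The classes differed in location. Of the methylated class 36 members (27.1%) lay within 2 kb of a start, of the acetylated class 20 (13.5%), and of the unmarked class 14 (6.19%). Of the 96 members within 2 kb of a start, 46.9% had H3K27me3 in both libraries, 22.9% had H3K27ac in both and 14.6% had no mark. Of the 268 members inside genes and farther than 2 kb from a start, 15.3% had H3K27me3 in both, 28.4% H3K27ac and 27.6% no mark. The 379 distal intergenic members gave 21.4%, 26.6% and 33.5%. In the same place, CBX8 peaks with RING1B had H3K27me3 in both libraries more often: in 90.6% within 2 kb of a start, 84.9% inside genes and 81.1% in distal intergenic sequence. The H3K27me3 share of members was the lower one in these 3 locations, which leave out members from 2 to 3 kb of a start and members downstream of genes.

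The authors' fold enrichment over control had a median of 4.94 in CBX8 replicate 1 (lowest 1.56, highest 12.6) and of 4.78 in replicate 2 (2.27 to 48.6). CBX8 peaks with RING1B had medians of 7.16 (2.19 to 121) and 12.9 (2.22 to 98.2). The median width was 175 bp for members and 307 bp for peaks with RING1B, and the narrowest in both sets were 147 bp. Folds in replicate 1 took 304 distinct values over the 788 members, and 263 members (33.4%) shared the 4 commonest, which were 5.44, 4.94, 5.93 and 4.45. Of CBX8 replicate 1 peaks without RING1B, 788 of 4610 (17.1%) were found in CBX8 replicate 2, and of those with RING1B 86.1% were.

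Because weak peaks were commoner among members, the marks are also given within 4 groups of CBX8 replicate 1 fold, cut at the quartiles of all 9926 peaks; this split was chosen after seeing the data. The weakest group (1.56 to 4.92-fold) held 42.4% of members and 15.7% of peaks with RING1B. H3K27me3 in both libraries was found at 20.7% of members there, against 66.1% of peaks with RING1B. In the next groups the values were 23.6% against 81.7%, 26.6% against 87.6%, and 31.6% against 94.8%, the last with 19 members. That last group runs from 7.08-fold to 121-fold, and members reach only 12.6-fold in it. H3K27ac in both libraries was found at 41.6% of members in the weakest group, 17.8% and 15.3% in the next, and 5.26% in the strongest. Peaks with RING1B gave 51.4%, 15.6%, 13.8% and 6.06%. The H3K27me3 share of members was the lower one in all 4 groups, and the H3K27ac share of members was the lower one in the weakest and strongest groups.

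**Figure D3:**
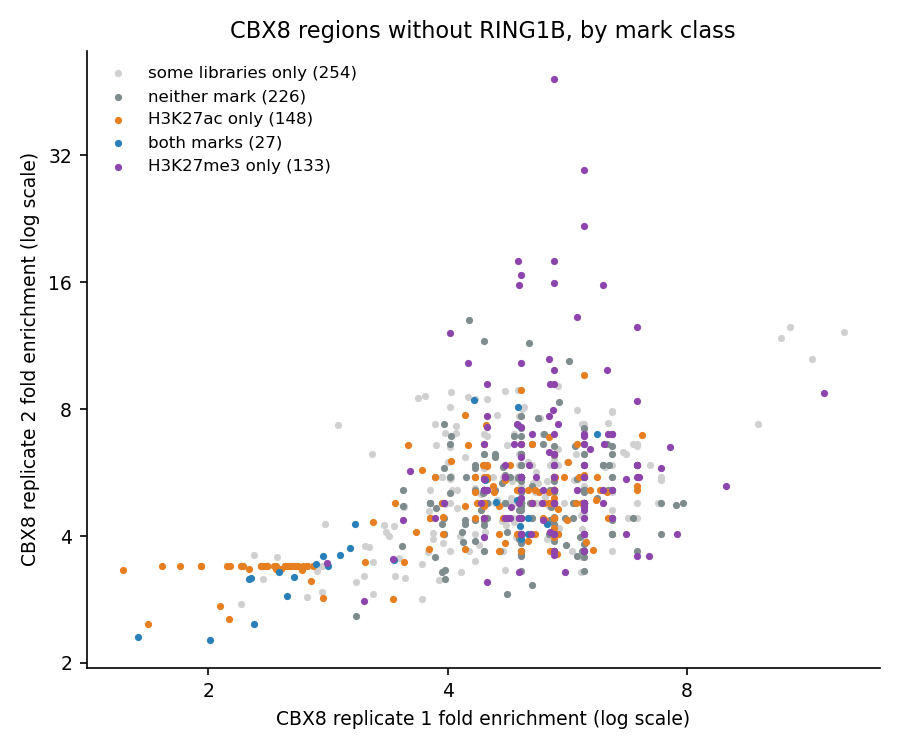
CBX8 fold enrichment of each member in replicate 1 (x axis) and replicate 2 (y axis), both on log scales, coloured by mark class. The columns of points are shared fold values, the row of acetylated members near 3.39 in replicate 2 is a dense group on chromosome 9, and the highest replicate 2 values belong to the methylated class.

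The members with the highest CBX8 fold in replicate 1 were distal. The first, 521332 bp from the start of Tle1, a Groucho-family corepressor, lay at chr4:71623948-71624096 with 12.6-fold in replicate 1 and 12.2-fold in replicate 2. Its only mark peak was H3K27ac replicate 1, at 3.74-fold. A region near Gabrg1, a GABA-A receptor subunit gene, had 10.5-fold and 11.8-fold, with H3K27ac in both libraries (4.47 and 4.14) and H3K27me3 in replicate 2 (4.79). Near Il23r, an interleukin receptor gene, chr6:67502084-67502232 had 11.9-fold and 8.76-fold with H3K27me3 at 5.60 and 3.74. Only 5 members reached 10-fold in replicate 1. These strongest members were chosen by their values.

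By replicate 2 the order was different, and the leading members were all methylated. The promoter of Osr2, an odd-skipped zinc finger factor of limb and palate development, had 48.6-fold in replicate 2 and 5.44-fold in replicate 1 at chr15:35299680-35299858. Its H3K27me3 folds were 2.85 and 3.94, and its nearest RING1B peak was 191 bp away. Distal to Tbx18, a T-box factor of mesenchyme, chr9:87740650-87740812 had 29.5-fold in replicate 2 and 5.93-fold in replicate 1. A member in an intron of Otx2os1, the antisense gene beside the homeobox gene Otx2, had 21.7-fold and 5.93-fold. A pair of members distal to Fat3, an atypical cadherin gene, each had 18-fold in replicate 2. These lay 85 bp, 277 bp, 33 bp and 407 bp from a RING1B peak, so each replicate 1 peak stood beside RING1B without touching it. The replicate 2 folds are of the overlapping CBX8 replicate 2 peak, which can reach beyond the member. Such a peak touched RING1B for 105 of all members (13.3%), and whether it did for the members named here is not given.

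Distance to RING1B varied widely. The median gap to the nearest RING1B peak was 6744 bp, with quartiles of 719.5 and 33356 bp and a range from 3 to 6058006 bp. The nearest peak belonged to RING1B replicate 2 for 750 members and to replicate 1 for 38. RING1B replicate 2 had the longer list and was of the same line and passage as CBX8 replicate 1. Within 1 kb of RING1B were 229 members (29.1%), from 1 to 5 kb 130 (16.5%), from 5 to 50 kb 270 (34.3%), and beyond 50 kb 159 (20.2%). H3K27me3 in both libraries was rarer in each farther bin: 41.5%, 28.5%, 13.3% and 9.43%. So was H3K27ac in both: 41.0%, 27.7%, 23.3% and 12.6%. The unmarked share was larger in each farther bin: 7.42%, 16.2%, 34.8% and 59.1%. The share within 2 kb of a start was 21%, 13.8%, 6.67% and 7.55%. Median CBX8 folds over the bins lay between 4.90 and 4.94 in replicate 1 and between 4.74 and 4.92 in replicate 2. The median gap was 1131 bp in the methylated class, 2968 bp in the acetylated class and 33562 bp in the unmarked class.

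**Figure D4:**
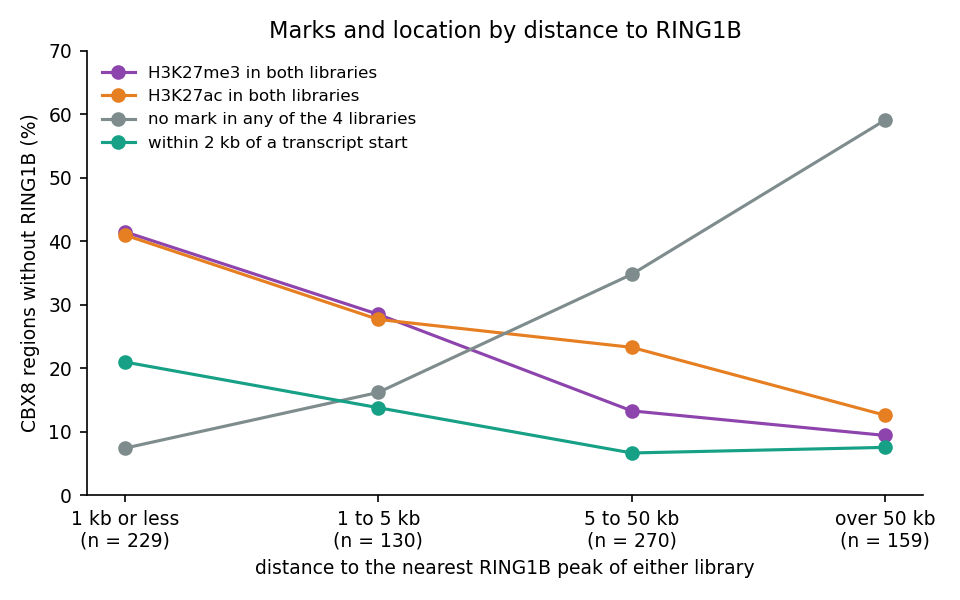
Percent of members (y axis) with each mark state or within 2 kb of a start, by distance to the nearest RING1B peak of either library (x axis, 4 bins with their numbers of members). H3K27me3 in both libraries is at 41.5% in the nearest bin and 9.43% in the farthest, H3K27ac at 41.0% and 12.6%, and the unmarked share at 7.42% and 59.1%.

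Some marked members lay in a histone mark peak that touched RING1B elsewhere. Of members in an H3K27me3 peak, 55.2% in replicate 1 and 57.3% in replicate 2 lay in a peak that elsewhere touched RING1B. For H3K27ac the shares were 47.8% and 44.8%. The H3K27me3 peaks holding members had median widths of 2355 and 4024 bp, against 681 and 885 bp over their lists. A wide peak has more room to hold any region and to touch RING1B. The share of all histone mark peaks that touch RING1B is not given here, so these shares have no background. In CBX8 replicate 2 itself, 105 members (13.3%) lay in a peak that also touched RING1B. At the border of the rule, the closest members were 3 bp from RING1B at Tcp10c, a testis-expressed gene, and 7 bp at Celf5, an RNA-binding protein gene, and Gm6367. Just outside it, CBX8 peaks shared 5 bp with RING1B at Gnas, the stimulatory G protein alpha subunit, and 7 bp near Calcoco2, an autophagy receptor gene, and at Prlhr, the prolactin-releasing hormone receptor. The members at the border had CBX8 replicate 1 folds of 4.33, 4.92 and 5.20, and the peaks outside it 6.43, 6.92 and 6.31. In replicate 2 the folds were 3.49, 5.15 and 7.63 inside and 5.89, 3.59 and 14.3 outside, which overlap.

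The methylated class had 36 members within 2 kb of a start; the promoters named here and in the next 2 paragraphs were, beyond the naming rule, picked after their values were seen. Mef2c, a MADS-box factor of muscle and neurons, had a member over its start at chr13:83524758-83524922 with CBX8 folds of 6.43 and 6.99 and H3K27me3 folds of 2.87 and 2.61. Myt1l, a zinc finger factor of neuronal identity, had CBX8 at 6.36 and 6.99, with 3.82 and 4.08 for H3K27me3. At Twist2 the CBX8 folds were 5.44 and 6.25 and the H3K27me3 folds 4.35 and 5.26. Zbtb16, which encodes the transcriptional repressor PLZF, had CBX8 at 4.45 and 5.15, H3K27me3 at 4.94 and 4.84, and no RING1B peak within 93594 bp. Most promoters of the class were closer: Mef2c lay 284 bp and Twist2 399 bp from RING1B.

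Gria4, also methylated, had CBX8 folds of 4.94 and 10.3 with H3K27me3 at 3.44 and 3.03. The potassium channel genes Kcnk2 and Kcna3 had CBX8 at 5.44 and 6.99, and at 4.48 and 9.20; their H3K27me3 folds were 3.52 and 4.42, and 5.05 and 4.74. Slc24a4, a potassium-dependent sodium/calcium exchanger of olfactory neurons, had CBX8 at 5.44 and 9.20 with H3K27me3 at 4.89 and 5.12. Trpc4, a cation channel gene, had CBX8 at 5.44 and 9.93. Ntrk3, a neurotrophin receptor gene, had 6.71 and 4.05. Nxph1, a secreted ligand of neurexins, had 4.94 and 16.6. None of these promoters had an H3K27ac peak in either library. Pde4a, a cAMP phosphodiesterase of olfactory neurons, had CBX8 at 5.09 and 4.05, with 4.03 and 3.79 for H3K27me3.

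The acetylated class had 20 members within 2 kb of a start. Cdkn1b, a cyclin-dependent kinase inhibitor, had CBX8 folds of 5.65 and 4.36 at chr6:134921009-134921155 and H3K27ac folds of 19.3 and 16, with RING1B 180 bp away. Fbxl5, the iron-sensing subunit of a ubiquitin ligase, had CBX8 at 5.51 and 4.63 and H3K27ac at 18.1 and 18.9. Hdac10, a deacetylase gene, had CBX8 at 4.33 and 5.09 and H3K27ac at 12.7 and 10.8. Rps19, a protein of the small ribosomal subunit, had CBX8 at 5.05 and 5.15 and H3K27ac at 10.2 in replicate 2 and slightly less in replicate 1, and its nearest RING1B peak was 18056 bp away. The catenin genes Ctnnb1 and Ctnnd1, of cell adhesion, had CBX8 at 4.79 and 5.89, and at 6.22 and 5.15; H3K27ac was 5.09 and 5.54, and 6.78 and 6.30. The CBX8 folds of these promoters overlapped those of the methylated ones in replicate 1.

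Unmarked members were the largest of the 4 classes, and 14 of the 226 lay within 2 kb of a start. The 6 with the highest fold in their weaker CBX8 library included an intron of Dmd, the dystrophin gene, with 6.43 and 6.53, a site distal to Elavl2, a neuronal RNA-binding protein gene, with 6.34 and 6.61, and an intron of Dnah5, an axonemal dynein gene, with 6.43 and 6.25. Their nearest RING1B peaks were 658873, 1600396 and 233038 bp away. The other 3, assigned to Gm14393, Mir1187 and AA545190, lay 613, 36520 and 844139 bp from RING1B. Unmarked promoters, picked after their values were seen, included App, the amyloid precursor protein gene, with 5.28 and 6.99, Nsd1, a histone methyltransferase gene, with 5.93 and 5.89, and Efnb3, an ephrin of axon guidance, with 5.44 and 4.78. App and Nsd1 lay 1257 and 1356 bp from RING1B. Away from promoters, an unmarked intronic member of Nrxn3, a neurexin gene, had 5.69 and 10.4 and lay 18986 bp from the start. An unmarked distal intergenic member assigned to Nlgn1, a neuroligin gene, had 5.44 and 5.15 and lay 736263 bp from the start.

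The leading members of the other classes were mixed in kind. In the methylated class, besides Il23r and Mef2c, the rule named Cux2, a homeobox gene of neurons, with an intronic member at 6.92 and 12.5, and Mnx1, a homeobox gene of motor neurons, with a distal member at 6.43 and 6.99. Mnx1 had H3K27me3 at 5.63 and 6.82 and RING1B 240 bp away. It also named Skap1, a T-cell adaptor gene, at 7.61 and 6.52, and B020031M17Rik at 6.92 and 8.35. The acetylated class was led by Thada, with 7.03 and 6.94 and H3K27ac at 2.92 and 2.57. A distal region of Gm12018 was next, with 5.93 and 9.62 and H3K27ac at 2.36 and 4.99. Kdelr2, a receptor that returns proteins to the endoplasmic reticulum, had an intronic member at 5.82 and 6.61 and H3K27ac at 5.35 and 8.08. Of members with both marks, the first was in an intron of Ulk4, a pseudokinase gene, with CBX8 folds of 6.17 and 6.99. There, H3K27me3 reached 6.07 and 8.22, and H3K27ac 2.61 and 2.46.

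The authors' annotation named 633 genes for members, 13.2% of the 4812 genes named by the CBX8 replicate 1 list. Of the 633, 135 (21.3%) also had a CBX8 peak with RING1B elsewhere, while 1511 of all 4812 named genes had one. The share was 46.3% of the genes of the methylated class, 15.2% of the acetylated and 15.5% of the unmarked. Genes were then counted in lists, each read against that 13.2%. Of 37 Hox genes named by the CBX8 list, which pattern the body axis, 1 had a member: a distal region of Hoxc4 with CBX8 at 4.94 and 6.62 and H3K27me3 at 4.06 and 4.28. All 37 had a CBX8 peak with RING1B. Of 89 developmental transcription factors, 10 (11.2%) had a member, none of them within 2 kb of a start. A CBX8 peak with RING1B was found for 9 of the 10, and for 85 of the 89. Their 11 members had H3K27me3 in both libraries at 5 and H3K27ac in both at 0. Among them, Pitx1, a homeobox gene of hindlimb and pituitary, had 7.42 and 5.52 with H3K27me3 in replicate 2 (5.98) and H3K27ac in replicate 2 (13.1). An intronic region of another transcript assigned to Dlx2, a homeobox gene of forebrain and jaw, had 5.93 and 6.25.

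Of 18 transcription factors of the olfactory lineage named by the CBX8 list, 2 (11.1%) had a member, close to the 13.2% over all named genes. Neurod2, a proneural bHLH factor, had a pair of methylated members downstream of the gene, both with CBX8 of 6.92 in replicate 1 and with 5.89 and 5.52 in replicate 2, 133 and 124 bp from RING1B. Ebf1, a factor of olfactory neuron maturation, had an unmarked intronic member with 5.93 and 4.78. Of 25 olfactory receptor genes named, 3 (12.0%) had a member, with CBX8 at 4.94 and 5.89 for Olfr1505. Of 18 vomeronasal receptor genes, which encode pheromone receptors, 8 (44.4%) had a member. None of their 10 members lay within 2 kb of a start. H3K27me3 covered 4 in both libraries, H3K27ac covered 3, with a member of Vmn1r77 and one of Vmn1r2 in both counts, and 4 had no mark. Receptor genes of this family lie in clusters of similar copies, and reads could be split among them, so these assignments are uncertain.

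Among the other lists, of 7 cell cycle genes, 6 immediate early genes, 3 sustentacular and gland genes and 1 immune gene named, 0 had a member. Of 6 ribosomal protein genes, 2 had one: the acetylated Rps19 promoter and an unmarked region 530211 bp from Rps29. Of 43 potassium channel genes 5 (11.6%) had a member, of 21 synapse and excitability genes 4 (19.0%), of 30 axon guidance genes 3, of 44 signalling ligand, receptor and antagonist genes 4 (9.09%), and of 56 Zfp zinc finger genes 8 (14.3%). Of 25 collagen and laminin genes 3 (12.0%) had a member: Col26a1 at a methylated promoter, Col18a1 in an acetylated exon and a distal region of Col13a1. Of 11 Polycomb group genes 1 had members: 3 regions assigned to Ezh2, the methyltransferase of Polycomb repressive complex 2. They lay in introns of another transcript, the closest at chr6:47657822-47657985, and not at the Ezh2 start. Their CBX8 folds were 4.81 and 4.69, 4.32 and 8.43, and 3.59 and 5.71, and all 3 had H3K27me3 in both libraries. The second of them, chr6:47675983-47676182, also had H3K27ac in both, at 3.19 and 3.68.

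Members were grouped on the genome in part. Joining members up to 10 kb apart gave 691 clusters, of which 646 held 1 member and 13 held 3 or more, with 78 members in all. The largest, chr9:3001667-3037535, held 35 members assigned to the microRNA gene Mir101c. All 35 had H3K27ac in both libraries, at 1.52 and 1.64, and none had H3K27me3. The H3K27ac fold was the same at all 35 within each library, so they may lie under a single H3K27ac peak. They nevertheless count as 35 of the 148 acetylated members. They lay 132 to 1929 bp from RING1B, so they also count in the distance bins up to 5 kb. Their CBX8 folds ran from 1.56 to 2.71 in replicate 1 and from 3.32 to 3.39 in replicate 2, among the lowest of all members in replicate 1. Other clusters were assigned to Pisd-ps2, Gpm6a, Asmt, Gm21119, Sfi1 and Snord116. Repeats and read mapping could not be checked at any of these clusters, because no genome and no read counts were at hand. Whether the 35 members near Mir101c are separate CBX8 sites is therefore uncertain, as are the gene assignments of the clusters.

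In 15 bins of 1 Mb that each held 5 or more members were 154 members (19.5%), among them 54 of the 148 acetylated, 9 of the 27 with both marks, 13 methylated and 13 unmarked. Without those bins, a choice made after seeing the data, H3K27ac in both libraries was found at 21.1% of members and 13.2% of peaks with RING1B. H3K27me3 in both was found at 24.0% and 89.1%, no mark at 33.6% and 0.530%, and a start within 2 kb at 13.6% and 47.5%. The H3K27ac share of members, 21.1%, was then not above the background of 21.4% over all CBX8 replicate 1 peaks. That background still included the bins and was not counted without them. The bins with the most members also held CBX8 peaks with RING1B: 23 of 60 CBX8 peaks on chromosome 9, 39 of 61 on chromosome 8 and 10 of 25 on chromosome X. Over the whole CBX8 replicate 1 list these were 4579 of 9926. A bin on chromosome 5 with 9 members had 0 among its 10 CBX8 peaks.

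Chromosome 5 held 122 members (15.5%), against 12.4% of all CBX8 replicate 1 peaks and 9.37% of those with RING1B. It held 12.4% and 11.7% of the CBX8 lists, 7.46% and 11.4% of the RING1B lists, and 7.24% to 8.30% of the histone lists. Leaving it out, chosen after seeing the data, gave 24.0% of members with H3K27me3 in both libraries, 28.4% with H3K27ac in both and 28.4% with no mark. Chromosome 9 held 7.61% of members and X held 3.55%, against 5.81% and 1.97% of peaks with RING1B. Of all CBX8 replicate 1 peaks they held 5.04% and 1.26%. A single bin of 1 Mb held 36 of the 60 members on chromosome 9, and another held 15 of the 28 on X.

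**Figure D5:**
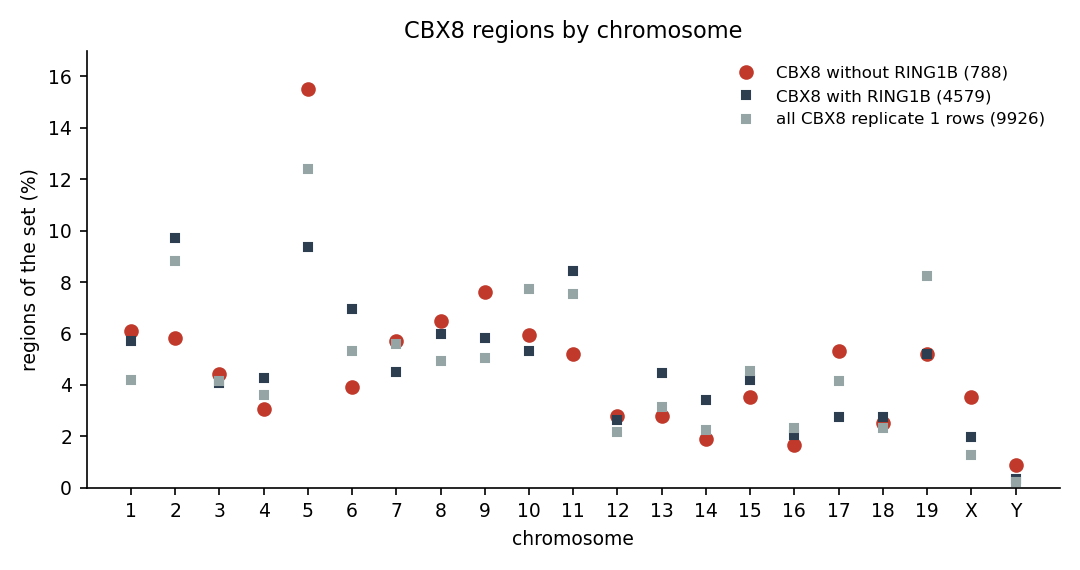
Percent of each set (y axis) by chromosome (x axis) for members, CBX8 peaks with RING1B and all CBX8 replicate 1 peaks. Members on chromosome 5 stand at 15.5%, above the 12.4% of all CBX8 peaks and the 9.37% of those with RING1B.

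Promoter sequence could be read for few members. Of 32851 RefSeq promoter windows, reaching 250 bases before to 50 after a start, 24 of 22 genes lay under 21 members. The median CG count per window was 20 over the 11 windows under methylated members and 7.50 over the 6 under acetylated ones, against 7 over all windows and 19.0 over the 627 under CBX8 peaks with RING1B. These windows add the 50 bases after the start to the printed ones. Over them Twist2, with 25 CG, and Gria4, with 17, stood near the first value. The 4931429P17Rik window, with 3, and the 2210417A02Rik window, with 7, were below the second. Short motifs were searched on both strands. GGGCGG, the GC box, was in 29.2% of the 24 windows and 35.7% of all windows. CANNTG, the E-box, was in 83.3% and 72.3%, and CCGGAAG, an ETS motif, in 12.5% and 8.86%. TGANTCA, an AP-1 motif, was in 4.17% and 7.81%. With 24 windows, 1 window is 4.17%, so these shares are close to those of all promoters or too coarse to separate from them.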

How the data were processed

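CBX8, RING1B, H3K27me3 and H3K27ac were profiled with 2 libraries each. The submitters' processing notes list build mm10, MACS2 2.1.1.20160309, BWA 0.7.12, Trim Galore 0.4.3 and bcl2fastq 2.17; no option or control is named in the sources used here. The authors deposited 1 annotated peak list per library, with fold enrichment (a ratio) and a −log10 q-value per peak. Folds are the authors' values and were compared within a list. The authors' score column was not used. The word combined stands in peak names of CBX8 replicate 2 and both H3K27ac lists, and whether libraries were pooled there is not stated.

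Overlaps of at least 1 bp were computed with Python 3.11.15, numpy 2.4.6 and pandas 2.3.3, checked on simulated intervals. Where several peaks overlapped a region, the highest fold was taken. A percent was counted over regions. The members, gene lists and comparisons were chosen with earlier results of these data known. Genes were named as the 6 members of each mark class with the highest CBX8 fold in the weaker library, up to 3 members per gene list by that order, and 3 at each side of the rule's border; others are stated as chosen later. Sequences came from RefSeq. Alternatives changed the overlap, q-values, RING1B distance, start window and libraries. No genome was used. A further basal cell marker is not reported here.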

Additional observations from a re-analysis of the deposited data

How the results depend on the processing

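Over 5 main values (the number of members and the percents with H3K27me3 in both libraries, H3K27ac in both, no mark, and a start within 2 kb), 28 of 59 alternatives stayed within the spread between libraries, or within 1.5 times the count, and 31 moved beyond it. Leaving out 1 library at a time gave 820 to 67935 members. The shares ran from 11.4% to 52.8% for H3K27me3, 13.6% to 39.8% for H3K27ac, 11.3% to 49.7% for no mark and 8.29% to 27.4% for a start within 2 kb. Without RING1B replicate 2 there were 2202 members, 52.8% with H3K27me3 and 27.4% near a start, so the absence of RING1B rested mostly on that library. Without CBX8 replicate 2 there were 4610 members, and without CBX8 replicate 1 67935. CBX8 q-values of 1e-05 or less in both libraries left 235 members, with H3K27ac at 41.3%, no mark at 15.7% and a start within 2 kb at 10.2%. No value for peaks with RING1B or for the background is given at that cut. By CBX8 replicate 1 fold the order was different, with H3K27ac at 41.6% of members in the weakest group and 5.26% in the strongest. At least 50% coverage of the CBX8 peak gave no mark at 30.8% and a start at 11.9%. With no RING1B within 1 kb, no mark was at 37.4% and a start within 2 kb at 8.59%. With CBX8 replicate 2 peaks as the unit these were 32% and 12.4%, without dense bins 33.6% and 13.6%, and without chromosome 5 the start share was 12.8%. A window of 1 kb gave 8.50%, of 5 kb 21.3%, and RefSeq starts 10.8%. The cause of these moves was not tested. The spread used for the start share was 0.161 percentage points, so small moves count there. It was taken between the rule and its mirror, which count largely the same regions from either CBX8 list. It is therefore not a spread of independent libraries, and all 13 alternatives of the start share moved beyond it. No paired analysis was possible because the results come from no test. A replicate number marks the same line and passage for some pairs of antibodies only.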
